A study of Rattus norvegicus with 28 samples.

Results

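The genes described here are 6 textbook targets of the glucocorticoid receptor (Klf9, Zbtb16, Fkbp5, Tsc22d3, Per1 and Sgk1), the receptor gene itself (Nr3c1), and the enzyme genes that activate and inactivate its ligand (Hsd11b1 and Hsd11b2). They were chosen by name, with earlier results of these data known. All 9 were present among the 17002 genes of the deposited table, each in a single row. Genes whose deposited values averaged under 10 were left out, and all 9 were among the 14908 that remained for testing. The deposited values are read counts divided by a size factor for each library, so they can be compared between libraries but not between genes, because transcript length was not taken into account.

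Polyadenylated RNA of Sprague Dawley rats came from 1 lobe, the right upper lung lobe, and its 28 libraries fell into 8 groups. Acutely injured lungs were ventilated with tidal volumes that varied (acute_noisy, n = 4) or stayed constant (acute_VCV, n = 3). Chronically injured lungs were ventilated in the same modes (chronic_noisy, n = 3, and chronic_VCV, n = 3), as were lungs with no earlier injury (healthy_noisy, n = 3, and healthy_VCV, n = 4). Unventilated lungs were taken 14 days after chronic injury had been induced (control_chronic, n = 5) or had no injury (control_blank, n = 3). VCV stands for volume-controlled ventilation, and the noisy mode is also volume-controlled. All 8 groups share the strain and the tissue. How the injuries were induced, the length of ventilation, the anaesthesia, any steroid given and the time of day of sampling are not given in the sources used here. The ventilated groups without chronic injury were set against control_blank, and the chronically injured ones against control_chronic, so that 4 comparisons share the control_blank libraries and 2 share the control_chronic libraries.

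Glucocorticoids are adrenal steroids, mainly corticosterone in the rat and cortisol in humans, that are released under stress. They bind the glucocorticoid receptor, which leaves a complex with heat shock proteins, enters the nucleus and switches genes on or off. In the lung, glucocorticoids drive maturation before birth and restrain inflammation. Inside a cell the supply of active steroid also depends on enzymes: 11β-hydroxysteroid dehydrogenase type 1 (Hsd11b1) mainly regenerates it from its inert 11-keto form. Type 2 (Hsd11b2) inactivates it, which in the kidney and other salt-transporting epithelia keeps it off the mineralocorticoid receptor.

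Promoter windows from RefSeq (build GRCr8, 250 bases before to 50 bases after a transcript start) were available for 6 of the 9 genes, 11 windows in all; Zbtb16, Hsd11b1 and Hsd11b2 had none. Those of Klf9, Fkbp5 and Per1 are shown because these genes were higher in most ventilated groups, and a window of Tsc22d3 because that gene, also a receptor target, was not. Capitals mark TGACG, the core of the cAMP response element, on the strand shown or as CGTCA.
Klf9 (chr1:230126396-230126695, + strand): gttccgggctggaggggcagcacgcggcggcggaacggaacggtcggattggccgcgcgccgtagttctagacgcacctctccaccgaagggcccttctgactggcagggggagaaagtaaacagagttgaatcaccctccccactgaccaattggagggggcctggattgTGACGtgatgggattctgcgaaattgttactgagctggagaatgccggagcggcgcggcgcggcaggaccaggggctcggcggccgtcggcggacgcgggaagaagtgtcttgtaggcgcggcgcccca
Fkbp5 (chr20:6543506-6543805, - strand): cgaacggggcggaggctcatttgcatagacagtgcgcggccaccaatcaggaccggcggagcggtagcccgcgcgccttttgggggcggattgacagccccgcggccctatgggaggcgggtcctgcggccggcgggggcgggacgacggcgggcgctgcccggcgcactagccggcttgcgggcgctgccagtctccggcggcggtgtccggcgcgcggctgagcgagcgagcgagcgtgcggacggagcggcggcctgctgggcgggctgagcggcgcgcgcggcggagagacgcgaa
Per1 (chr10:54304126-54304425, + strand): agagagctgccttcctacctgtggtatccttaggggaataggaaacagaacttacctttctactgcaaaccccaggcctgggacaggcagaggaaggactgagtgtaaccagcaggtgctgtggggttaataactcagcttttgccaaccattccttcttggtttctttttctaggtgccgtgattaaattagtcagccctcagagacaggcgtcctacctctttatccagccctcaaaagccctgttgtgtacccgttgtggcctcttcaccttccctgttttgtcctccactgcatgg
Tsc22d3 (chrX:109009985-109010284, - strand): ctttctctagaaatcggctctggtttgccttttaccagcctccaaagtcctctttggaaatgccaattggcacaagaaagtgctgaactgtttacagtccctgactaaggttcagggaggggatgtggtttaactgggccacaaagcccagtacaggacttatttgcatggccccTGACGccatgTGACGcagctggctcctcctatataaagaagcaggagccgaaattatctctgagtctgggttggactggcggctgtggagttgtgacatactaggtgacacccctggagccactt
Both strands of every window were searched. TGACG stood once in the Klf9 window, 79 bases before the start, and at 75 and 65 bases before the start in the Tsc22d3 window shown. No other of the 11 windows held it, the further windows of Tsc22d3 among them, while 21.2% of all 33469 rat windows hold it. The palindrome bound by the glucocorticoid receptor, AGAACA and TGTTCT set 3 bases apart, was in 0 of the 11 windows and in 0.0149% of all windows, and its TGTTCT arm was in 0 of the 11 and in 20.7% of all. The E-box CACGTG, bound by clock proteins, was in 0 of the 11 windows against 6.42% of all, and TATAAA was in the Tsc22d3 window shown and in 2 of the Sgk1 windows, against 14.2% of all. A match of letters is no binding site, and the absence of a match says only that the letters are not in these windows.

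Between 6024093 reads (control_chronic_113) and 31923838 reads (acute_VCV_040) stood behind a library. The lung identity of the samples was clear in each of the 28 libraries: summed deposited values of 6 alveolar type 2 markers lay between 282871 and 831875, and those of 7 alveolar type 1 markers between 59800 and 158445. Neutrophil markers moved with ventilation: of 12 measured, 10 or 11 were higher in each of the 6 comparisons of ventilated with unventilated lungs, and their summed level was 10648 to 122325 in ventilated libraries, against 1165 to 2939 in control_chronic and 2967 to 3894 in control_blank. Markers of conducting airway epithelium moved mostly the other way, although 1 ciliated cell marker was higher in healthy_VCV lungs. In each of the 6 comparisons 5 or 6 of 7 ciliated cell markers and 3 to 5 of 5 club cell markers were lower. Their part in the results below was not tested, and in whole tissue fewer cells of a type and less RNA per cell cannot be told apart. Library numbers fall into series that the labels do not explain: series 12 holds all control_blank and acute_VCV libraries, series 18 all control_chronic libraries, and series 14 and 15 the rest. Of the 6 comparisons with unventilated lungs, acute_VCV against control_blank alone lies within a single series. In the other 5, ventilation and series cannot be told apart. Both acute groups differ from control_blank in injury as well as ventilation, and no group is acutely injured and unventilated. Acute injury and ventilation thus cannot be told apart in the comparisons of acute_noisy and acute_VCV with control_blank.

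Fkbp5, Per1, Klf9 and Zbtb16 RNA was higher in most of the 6 comparisons of ventilated with unventilated lungs, and Hsd11b2 RNA was lower in all 6. The receptor gene itself passed the test in 0 of 6. In the log2 scale used throughout, log2(deposited value + 1), tests are two-sided limma tests with Benjamini-Hochberg adjustment over 14908 genes and a threshold of 0.05. In acute_noisy against control_blank lungs, 4 of the 9 genes were higher and 1 lower, where 31.3% of all tested genes were higher, 28.4% lower and 59.8% called in all. In acute_VCV against control_blank lungs, 1 of the 9 genes was higher and 1 lower, where 20.6% of all tested genes were higher, 16.7% lower and 37.3% called in all. In chronic_noisy against control_chronic lungs, 4 of the 9 genes were higher and 1 lower, where 19.1% of all tested genes were higher, 18.1% lower and 37.2% called in all. In chronic_VCV against control_chronic lungs, 2 of the 9 genes were higher and 1 lower, where 6.89% of all tested genes were higher, 7.9% lower and 14.8% called in all. In healthy_noisy against control_blank lungs, 4 of the 9 genes were higher and 1 lower, where 17.5% of all tested genes were higher, 14.6% lower and 32.1% called in all. In healthy_VCV against control_blank lungs, 5 of the 9 genes were higher and 1 lower, where 29.3% of all tested genes were higher, 28.1% lower and 57.4% called in all. Calls in either direction among the 9 were near the share of all genes in acute_noisy and healthy_VCV lungs and below it in acute_VCV lungs. Those 3 counts are therefore no result about the 9 genes. In chronic_noisy, chronic_VCV and healthy_noisy lungs the calls lay above that share. The 9 genes were chosen with earlier results of these data known, so this excess is no independent result. Fkbp5 was higher in 6 of these 6 comparisons, Per1 in 5, Klf9 and Zbtb16 in 4 each and Hsd11b1 in 1, Hsd11b2 was lower in 6, and Tsc22d3, Sgk1 and Nr3c1 passed in 0. The count for acute_VCV moved with single libraries, to 4 without control_blank_016 or acute_VCV_040 and to 1 without control_blank_021 or acute_VCV_045; that for each of the other 5 comparisons stayed within 1.5 times when any single library was left out. By edgeR the 6 counts of called genes were 4, 3, 5, 4, 5 and 6 in the order just given, and by DESeq2 they were the same. Whatever the test, the number of the 9 genes whose ventilated libraries all lay above the unventilated ones was 3 in acute_noisy (24.3% of all genes did so), 0 in acute_VCV (23.1%), 4 in chronic_noisy (22.4%), 1 in chronic_VCV (10.3%), 5 in healthy_noisy (19.5%) and 5 in healthy_VCV lungs (30.2%). Wholly below them were 2 genes in chronic_VCV (12.2% of all genes) and 1 in each of acute_noisy (22.6%), acute_VCV (20.7%), chronic_noisy (22.1%), healthy_noisy (20.2%) and healthy_VCV (30%).

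**Figure D1:**
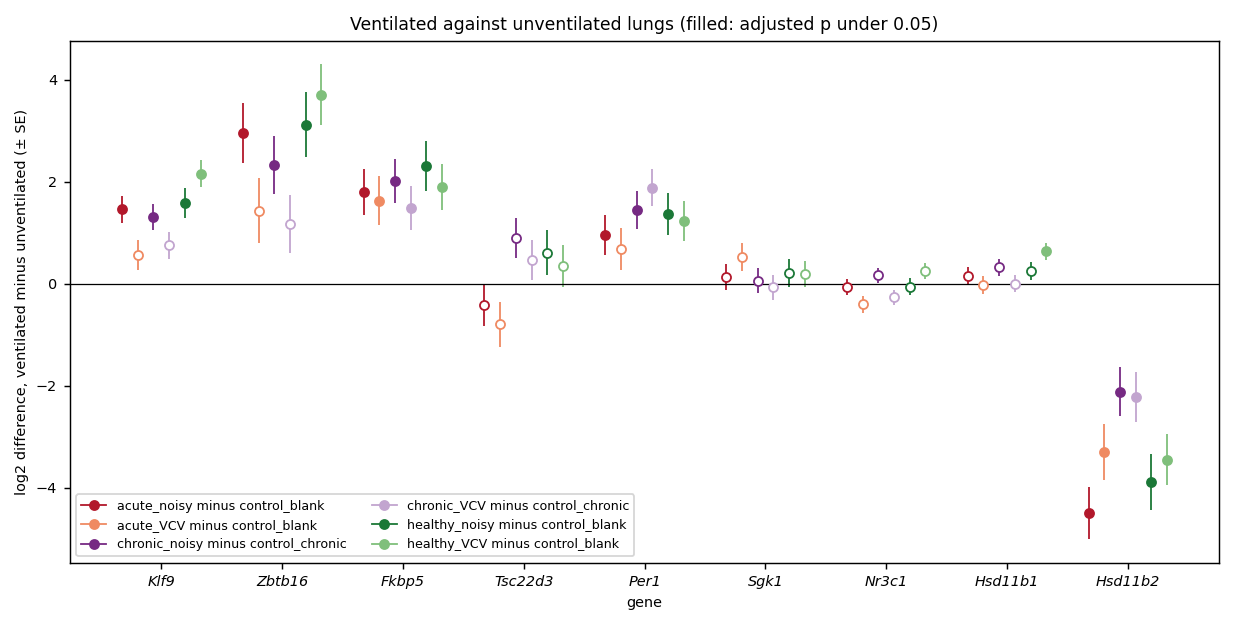
Differences between ventilated and unventilated lungs for each gene, as log2 differences ± SE (vertical axis) from limma, with 1 point for each of the 6 comparisons and filled points for an adjusted p under 0.05. Points for Hsd11b2 lie between -4.50 and -2.12, those for Fkbp5 between 1.48 and 2.31, and those for Nr3c1 on both sides of 0.

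Klf9 (ENSRNOG00000014215), a zinc finger transcription factor and a direct receptor target in many tissues, was higher in every variable-ventilation group and in healthy_VCV lungs. Its deposited values, from lowest to highest, were 2622, 2738, 2794 and 3116 in healthy_VCV and 1495, 2030.4 and 2211 in healthy_noisy libraries, against 433, 599 and 957 in control_blank libraries. No library of either healthy ventilated group overlapped the controls, and the means were 4.25-fold (healthy_VCV, 2817 ± 212, SD, n = 4) and 2.88-fold (healthy_noisy) that of control_blank (663 ± 268, SD, n = 3). The log2 differences by limma were 2.16 ± 0.27 (adjusted p = 1.9e-06) and 1.58 ± 0.29 (adjusted p = 0.00042). After acute injury Klf9 stood at 1563, 1729.7, 1779.8 and 1861 in acute_noisy libraries, 1.46 ± 0.27 (adjusted p = 9e-05) on the log2 scale by limma above control_blank. The acute_VCV libraries had 584, 1159 and 1182, which overlapped control_blank (0.56 ± 0.29, adjusted p = 0.13 by limma). After chronic injury the values were 2194, 2432.2 and 3049 in chronic_noisy and 1229, 1545 and 2721 in chronic_VCV libraries, against 765, 906, 1028, 1145 and 1406 in control_chronic libraries. The chronic_noisy libraries all exceeded control_chronic (1.30 ± 0.26, adjusted p = 0.00077 by limma). The chronic_VCV libraries overlapped it and missed the threshold (0.75 ± 0.26, adjusted p = 0.051 by limma), and chronic_VCV_069, at 2721, stood well above the other 2 of its group.

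Zbtb16 (ENSRNOG00000029980), which encodes the transcriptional repressor PLZF, ranged most widely of the 6 targets, 30.4-fold between its lowest and highest library. Values were 3014, 3505, 4033 and 4185 in healthy_VCV and 1802, 2758 and 2887 in healthy_noisy libraries, against 147, 256 and 578 in control_blank libraries, with no overlap. The means of healthy_VCV and healthy_noisy lungs were 11.3-fold and 7.59-fold that of control_blank, or 3.71 ± 0.59 (adjusted p = 2.1e-05) and 3.12 ± 0.63 (adjusted p = 0.001) on the log2 scale by limma. The acute_noisy libraries had 1257, 1954.5, 2777 and 3214, all above control_blank (2.95 ± 0.59, adjusted p = 0.00021 by limma). Of these, the 2 of series 14 had 2777 and 3214, and the 2 of series 15 had 1257 and 1954.5. The acute_VCV libraries had 386, 1014 and 1090.5, which overlapped control_blank and missed the threshold (1.43 ± 0.63, adjusted p = 0.078 by limma). In the chronic arm Zbtb16 stood at 2141, 2779.8 and 3572 in chronic_noisy and 748, 789.9 and 3279 in chronic_VCV libraries, against 138, 531, 535, 1009 and 1299.6 in control_chronic libraries. Chronic_noisy did not overlap control_chronic (2.32 ± 0.57, adjusted p = 0.0035 by limma). Chronic_VCV did (1.17 ± 0.57, adjusted p = 0.16 by limma), with chronic_VCV_069 again far above its group. The calls for Klf9 and Zbtb16 in these comparisons held when any single library was left out and under all other settings tried.

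Fkbp5 (ENSRNOG00000022523), a co-chaperone that lowers the affinity of the receptor for its ligand and is itself induced by it, was the target called in all 6 ventilated groups. Acute_noisy libraries had 3909, 4136, 4346 and 5741 and acute_VCV libraries 2300.4, 4278 and 6318. Healthy_noisy libraries had 5617, 6087 and 7493 and healthy_VCV libraries 3779, 4821, 5063 and 5529, against 689.8, 1146 and 2670.3 in control_blank libraries. All of these exceeded control_blank except acute_VCV_040, which lay below control_blank_016. The log2 differences by limma were 1.80 ± 0.45 (adjusted p = 0.0016) in acute_noisy, 1.63 ± 0.48 (adjusted p = 0.011) in acute_VCV, 2.31 ± 0.48 (adjusted p = 0.0013) in healthy_noisy and 1.89 ± 0.45 (adjusted p = 0.0012) in healthy_VCV lungs. Chronic_noisy libraries had 3269, 5259 and 5788 and chronic_VCV libraries 1876, 2936 and 5906, against 615, 706, 975, 1948 and 2380.4 in control_chronic libraries, with overlap for chronic_VCV alone. The log2 differences there were 2.02 ± 0.43 (adjusted p = 0.0014) in chronic_noisy and 1.48 ± 0.43 (adjusted p = 0.024) in chronic_VCV lungs by limma. The acute_VCV call did not pass without control_blank_021 (1.18, adjusted p = 0.083 by limma) or acute_VCV_045 (1.29, adjusted p = 0.072 by limma). The chronic_VCV call did not pass without chronic_VCV_069 (1.04, adjusted p = 0.17 by limma), control_chronic_114 (adjusted p = 0.056) or control_chronic_115 (adjusted p = 0.062). Neither of these 2 calls passed when the fit was limited to the groups compared (adjusted p = 0.056 and 0.095 by limma).

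Per1 (ENSRNOG00000007387), a repressor of the circadian clock that is also induced by glucocorticoids, was higher in 5 of the 6 ventilated groups. Its values were 5014, 7159 and 9091 in chronic_VCV and 4478, 4910.5 and 5875 in chronic_noisy libraries, against 991, 1364, 1802, 2229 and 4152 in control_chronic libraries. Both ventilated groups lay wholly above control_chronic, at 1.88 ± 0.37 (adjusted p = 0.0019) and 1.44 ± 0.37 (adjusted p = 0.0048) on the log2 scale by limma. Both calls held under all settings tried. Healthy_noisy libraries had 5596, 8170.5 and 9108 and healthy_VCV libraries 6342, 6703, 6822 and 7238, against 1325, 4104 and 4448 in control_blank libraries. Acute_noisy libraries had 4047, 5035, 5346 and 8995 and acute_VCV libraries 3655, 4903 and 5554. The healthy groups did not overlap control_blank and the acute groups did. Log2 differences were 1.37 ± 0.41 (adjusted p = 0.015) in healthy_noisy, 1.23 ± 0.39 (adjusted p = 0.0094) in healthy_VCV, 0.95 ± 0.39 (adjusted p = 0.037) in acute_noisy and 0.68 ± 0.41 (adjusted p = 0.2) in acute_VCV lungs by limma. These 3 calls turned on control_blank_021, whose value of 1325 was the low one of its group: without it the differences were 0.81 (adjusted p = 0.13) in healthy_noisy, 0.66 (adjusted p = 0.14) in healthy_VCV and 0.39 (adjusted p = 0.39) in acute_noisy lungs by limma. The acute_noisy call also failed without acute_noisy_046 (adjusted p = 0.051 by limma) or acute_noisy_053 (adjusted p = 0.12) and under edgeR (adjusted p = 0.064), DESeq2 (adjusted p = 0.05), quantile normalization (adjusted p = 0.083 by limma) and a fit limited to the groups compared (adjusted p = 0.11 by limma). The healthy_noisy call failed without healthy_noisy_029 (adjusted p = 0.067 by limma) and in the fit limited to its groups (adjusted p = 0.069).

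Tsc22d3 (ENSRNOG00000013786), which encodes the anti-inflammatory protein GILZ, and Sgk1 (ENSRNOG00000011815), a kinase that raises epithelial sodium transport, did not pass the test against unventilated lungs in any of the 6 groups. Tsc22d3 had 13977, 14073 and 14270.3 in healthy_noisy and 4000.2, 4360 and 8617 in acute_VCV libraries, against 5249.5, 11385 and 13287 in control_blank libraries. Its log2 differences ran from -0.80 in acute_VCV to 0.89 in chronic_noisy lungs, with adjusted p of 0.16 and 0.078 by limma. The 3 healthy_noisy libraries were nearly equal and lay above all 3 control_blank libraries, while all 3 acute_VCV libraries were below the middle control_blank value. Sgk1 was the flattest of the 6 targets, with 1631 to 3864 over the 28 libraries, a 2.37-fold range that control_blank_016 and control_chronic_116 bounded. Its log2 differences lay between -0.07 in chronic_VCV and 0.52 in acute_VCV lungs (adjusted p = 0.88 and 0.14 by limma).

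**Figure D2:**
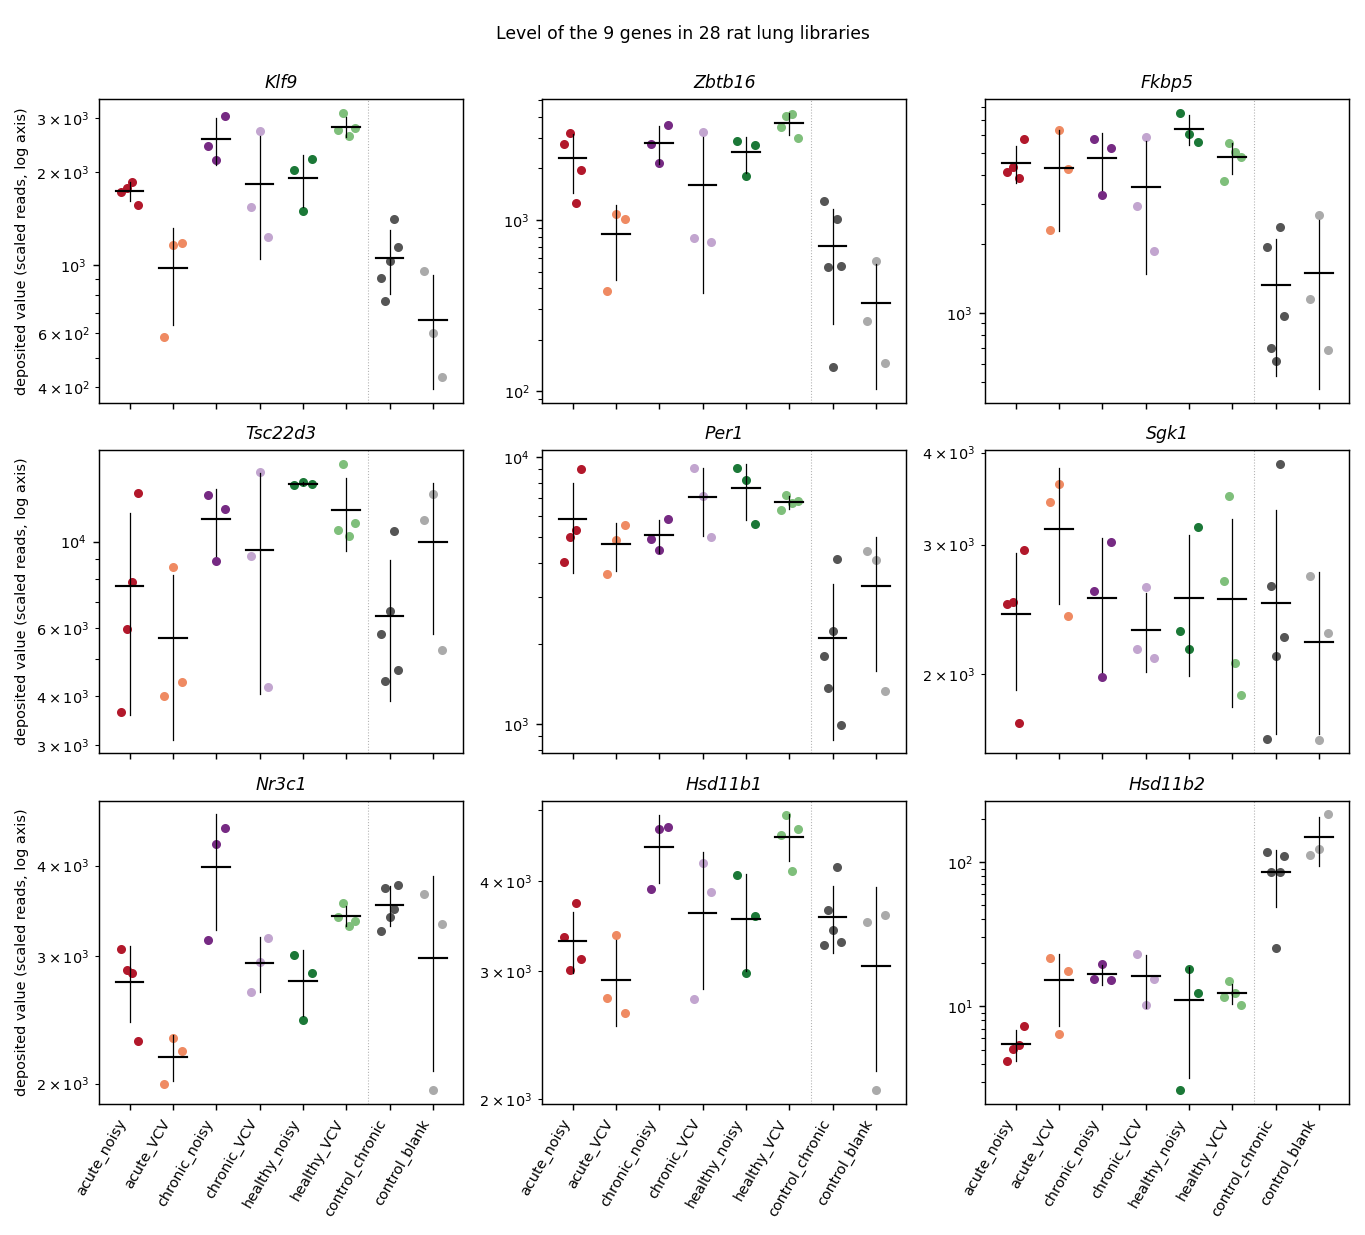
Deposited value of each of the 9 genes (vertical log axes, scaled reads) in every library, by group; points are libraries, bars the group mean and vertical lines 1 SD. The dotted line parts the 6 ventilated groups from the 2 unventilated ones, and for Hsd11b2 the 20 ventilated libraries, at 2.61 to 22.96, all lie below the 8 unventilated ones, at 25.47 to 214.

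Nr3c1 (ENSRNOG00000014096), the glucocorticoid receptor, spanned 1958 to 4508 over the 28 libraries, a 2.30-fold range. Values were 1998, 2219.9 and 2312 in acute_VCV and 2291, 2839.6, 2870.4 and 3064 in acute_noisy libraries, against 1958, 3323 and 3652 in control_blank libraries. Control_blank_016, at 1958, was the lowest library of all, so both acute groups overlapped control_blank; the same library was also the lowest of all for Sgk1 and Hsd11b1. Relative to unventilated lungs its log2 differences lay between -0.40 in acute_VCV (adjusted p = 0.061 by limma) and 0.24 in healthy_VCV lungs (adjusted p = 0.19). In the chronic arm, chronic_noisy libraries had 3159.9, 4287 and 4508 and chronic_VCV libraries 2674, 2944 and 3176, against 3251, 3398, 3484, 3729 and 3766 in control_chronic libraries. Chronic_VCV lay below all control_chronic libraries without passing the test (-0.27 ± 0.15, adjusted p = 0.23 by limma).

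Hsd11b2 (ENSRNOG00000017084), the inactivating enzyme, had the widest range of the 9 genes, 82.0-fold over the 28 libraries, and fell in all 6 ventilated groups. It had 4.14, 5.06, 5.41 and 7.33 in acute_noisy and 6.38, 17.6 and 21.7 in acute_VCV libraries. Healthy_noisy libraries had 2.61, 12.3 and 18.1 and healthy_VCV libraries 10.3, 11.6, 12.3 and 15, against 112, 122 and 214 in control_blank libraries. Its mean was thus 27.2-fold lower in acute_noisy (5.49 ± 1.34, SD, n = 4), 9.81-fold lower in acute_VCV, 13.6-fold lower in healthy_noisy and 12.2-fold lower in healthy_VCV lungs than in control_blank lungs (149 ± 56.2, SD, n = 3). By limma the log2 differences were -4.50 ± 0.51 (adjusted p = 5e-07), -3.30 ± 0.54 (adjusted p = 7.5e-05), -3.89 ± 0.54 (adjusted p = 4.5e-05) and -3.45 ± 0.51 (adjusted p = 9e-06) in that order. After chronic injury it stood at 15.1, 15.3 and 19.8 in chronic_noisy and 10.1, 15.5 and 23 in chronic_VCV libraries, against 25.5, 85.2, 85.8, 109 and 118 in control_chronic libraries. These were 5.06-fold and 5.22-fold lower means, -2.12 ± 0.49 (adjusted p = 0.0023) and -2.22 ± 0.49 (adjusted p = 0.0041) on the log2 scale by limma. Every ventilated library lay below every unventilated one, a pattern that 294 of the 14908 genes (1.97%) shared, with 236 genes (1.58%) wholly higher in ventilated libraries. The gene is scarce in these lungs: 2 to 39 reads stood behind each ventilated value and 20 to 387 behind each unventilated one, so counting error is wide in the low libraries. The fall was called in each of the 6 comparisons under every setting tried, edgeR and DESeq2 on recovered reads among them.

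Levels of most airway epithelial markers moved with Hsd11b2, with 1 ciliated cell marker called higher in healthy_VCV lungs. The 7 ciliated cell markers had median log2 differences of -2.18 in acute_noisy, -1.69 in acute_VCV, -1.07 in healthy_noisy, -1.58 in healthy_VCV, -1.42 in chronic_noisy and -1.11 in chronic_VCV lungs, against medians of all genes between -0.03 and 0.07. Their summed level was 4406 to 16713 in ventilated libraries, against 20054 to 27638 in control_chronic and 26878 to 37910 in control_blank libraries, without overlap, and 0 of the 7 were at 0 throughout a group (Foxj1, the defining ciliary factor, is not among the 7). Among club cell markers the median differences ran from -2.90 in acute_noisy to -1.27 in chronic_VCV lungs, and summed levels were 94838 to 422292 in ventilated libraries, against 403538 to 663495 in control_chronic and 532523 to 1355310 in control_blank libraries. Hsd11b2 itself differed by -4.50 to -2.12. The part of these epithelial markers in the fall of Hsd11b2 was not tested.

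Hsd11b1 (ENSRNOG00000005861), the regenerating enzyme, was called in 1 of the 6 comparisons, healthy_VCV. Values were 4124, 4629, 4717 and 4926 in healthy_VCV libraries, against 2056, 3511 and 3591 in control_blank libraries. All 4 healthy_VCV libraries exceeded the controls, with a mean 1.51-fold that of control_blank and a log2 difference of 0.63 ± 0.17 (adjusted p = 0.0029) by limma. This call did not pass without control_blank_016, whose value of 2056 was the lowest of all 28 (0.37, adjusted p = 0.06 by limma). In the other 5 comparisons the log2 differences lay between -0.03 in acute_VCV and 0.32 in chronic_noisy lungs (adjusted p = 0.92 and 0.12 by limma). H6pd, the enzyme of the endoplasmic reticulum that supplies Hsd11b1 with reduced cofactor, was higher in all 6 groups, by 2.25 ± 0.27 in acute_noisy, 1.64 ± 0.28 in acute_VCV, 1.41 ± 0.28 in healthy_noisy, 1.92 ± 0.27 in healthy_VCV, 1.46 ± 0.25 in chronic_noisy and 1.14 ± 0.25 in chronic_VCV lungs, the largest adjusted p by limma being 0.0047.

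The 9 genes stayed below the threshold between chronically injured and uninjured lungs without ventilation. All control_chronic libraries are of series 18 and all control_blank libraries of series 12, so chronic injury and series cannot be told apart here. Depth differed too, at 6024093 to 17162741 reads in control_chronic and 22277745 to 30960809 in control_blank libraries. In control_chronic against control_blank lungs, 0 were called by limma, by edgeR or by DESeq2, and 1 (Klf9, 0.71 ± 0.26, adjusted p = 0.063) had an unadjusted p under 0.05, where 9.3% of all genes were higher and 5.55% lower (14.9% in all). Leaving out single libraries gave 1 call without control_blank_021 or control_chronic_114 and 2 without control_blank_074. Hsd11b2 overlapped between these unventilated groups, at 84.7 ± 36 in control_chronic (SD, n = 5) and 149 ± 56.2 in control_blank lungs (SD, n = 3), with a log2 difference of -0.92 ± 0.49 (adjusted p = 0.2) by limma.

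Whether the effect of ventilation differs with chronic injury was asked through differences between comparisons. For constant tidal volumes, the effects on Klf9 and Zbtb16 were smaller in chronically injured than in uninjured lungs, with differences between the log2 effects of -1.41 ± 0.37 (adjusted p = 0.012) and -2.53 ± 0.82 (adjusted p = 0.03) by limma. Of the 9 genes, 0 were higher and 2 lower, where 9.92% and 14% of all genes were (23.9% in all). That count lay near the share of all genes and is therefore no result about the 9 genes. Klf9 differed from unventilated lungs by 0.75 in chronic_VCV and by 2.16 in healthy_VCV, and Zbtb16 by 1.17 and 3.71. The unventilated levels enter this difference. Control_chronic stood above control_blank by 0.71 ± 0.26 for Klf9 and 0.98 ± 0.57 for Zbtb16, without passing the test (adjusted p = 0.063 and 0.24 by limma). The Klf9 call held when each library was left out in turn. For Zbtb16 it did not pass without control_blank_021 (-2.07, adjusted p = 0.091 by limma), chronic_VCV_067 (-2.20, adjusted p = 0.1) or chronic_VCV_073 (-2.17, adjusted p = 0.074). It also did not pass without the shallowest pair of unventilated chronic libraries, control_chronic_113 with control_chronic_114 (-2.14, adjusted p = 0.076 by limma). The count of 2 became 4 without control_blank_074. For variable tidal volumes, 0 of the 9 genes were called by limma, edgeR or DESeq2, and 1 (Hsd11b2, 1.78 ± 0.73, adjusted p = 0.23) had an unadjusted p under 0.05, where 0.966% of all genes were higher and 1.69% lower (2.66% in all). Under constant volumes 2 of 8 macrophage (median -0.64) and 5 of 7 endothelial markers (-0.78) were also lower in this difference, with 1 endothelial marker higher. Lower too were 2 of 7 alveolar type 1, 2 of 7 ciliated cell, 1 of 12 lymphocyte and 1 of 4 erythroid markers. The part of these markers in this difference was not tested. The 4 groups in each of these differences come from different number series, save that healthy_VCV_062 shares series 15 with chronic_VCV, and series cannot be told apart from injury and ventilation.

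**Figure D3:**
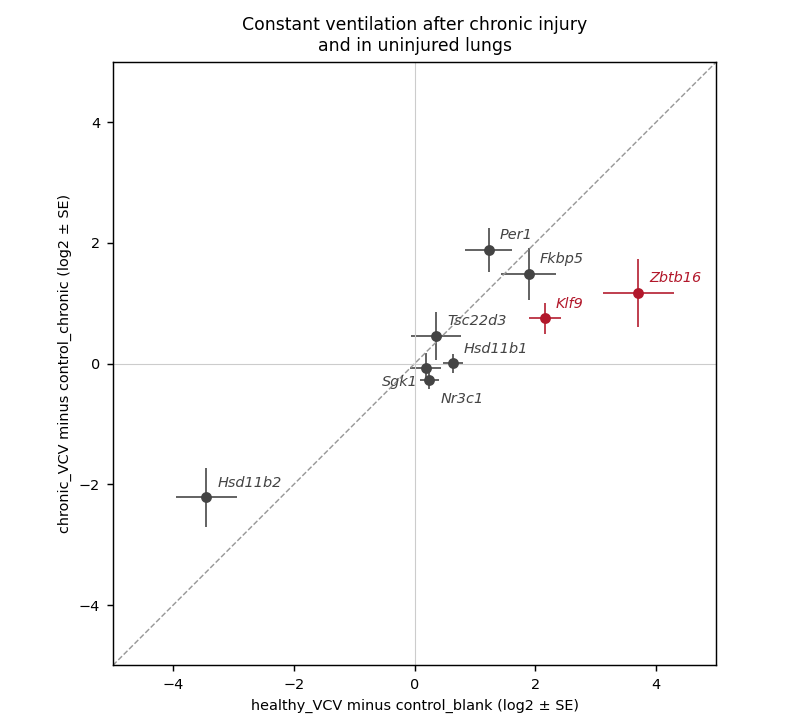
Effect of constant-volume ventilation on each gene in chronically injured lungs (vertical axis, chronic_VCV minus control_chronic) against that in uninjured lungs (horizontal axis, healthy_VCV minus control_blank), both as log2 differences ± SE. Klf9 and Zbtb16, in red, are the genes whose effects differed by the test, and they lie below the dashed line of equal effects.

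Between ventilation modes, 1 of the 9 genes passed the test in acutely injured lungs and 0 in chronically injured or uninjured lungs. Klf9 had 1563, 1729.7, 1779.8 and 1861 in acute_noisy libraries, against 584, 1159 and 1182 in acute_VCV libraries, without overlap and 0.90 ± 0.27 (adjusted p = 0.02) higher on the log2 scale by limma. Among the 9 genes 1 was thus higher and 0 lower, a share near that of all genes, of which 11.9% were higher and 12.3% lower (24.2% in all). The call did not pass without acute_VCV_040 (0.56, adjusted p = 0.19 by limma). The 2 acute_noisy libraries of series 14 (1729.7 and 1779.8) and the 2 of series 15 (1861 and 1563) all lay above acute_VCV, whose libraries are all of series 12. Zbtb16 also did not overlap, with 1257, 1954.5, 2777 and 3214 in acute_noisy and 386, 1014 and 1090.5 in acute_VCV libraries, but missed the threshold (1.52 ± 0.59, adjusted p = 0.062 by limma). These 2 genes were the ones wholly higher and 0 were wholly lower, against 11.5% and 15% of all genes. The count of called genes was 2 by edgeR, 3 by DESeq2 and 2 without acute_VCV_045, acute_noisy_046 or acute_noisy_053. In chronically injured lungs, chronic_noisy against chronic_VCV, 0 genes were called by limma, edgeR or DESeq2 and 1 (Nr3c1, 0.43 ± 0.17, adjusted p = 0.14) had an unadjusted p under 0.05, where 0.563% of all genes were higher and 1.86% lower (2.43% in all). In uninjured lungs, healthy_noisy against healthy_VCV, 0 genes were called by these 3 tools and 2, Klf9 at -0.58 ± 0.27 (adjusted p = 0.14) and Hsd11b1 at -0.38 ± 0.17 (adjusted p = 0.12), had an unadjusted p under 0.05, where 4.31% of all genes were higher and 6.01% lower (10.3% in all). Libraries of healthy_noisy lay wholly above healthy_VCV for Fkbp5 and wholly below for Klf9, Zbtb16, Nr3c1 and Hsd11b1, 1 and 4 of the 9 genes, against 16.4% and 20.2% of all genes. The healthy_noisy libraries are all of series 15, and those of healthy_VCV of series 14 except healthy_VCV_062. The chronic_noisy libraries are all of series 14 and the chronic_VCV libraries all of series 15. Mode and series thus cannot be told apart in injured lungs, and hardly in uninjured ones.

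Klf9 was thus higher under the variable mode in acutely injured lungs and at 1495, 2030.4 and 2211 under the variable mode, against 2622, 2738, 2794 and 3116 under the constant mode, in uninjured ones. The difference between these mode effects was a comparison added after the data had been seen, so its p-values are no independent test of that pattern. It was called for 3 genes, all higher, at 1.47 ± 0.38 (adjusted p = 0.0045) for Klf9, 2.11 ± 0.84 (adjusted p = 0.049) for Zbtb16 and 0.64 ± 0.22 (adjusted p = 0.025) for Nr3c1 by limma, where 19.6% of all genes were higher and 19.4% lower (39% in all). In the same contrast 4 of 8 macrophage (median 1.01, Mertk being on that list), 4 of 10 fibroblast (1.17) and 4 of 7 endothelial markers (0.94) were higher, with 1 endothelial marker lower. Lower were 3 of 6 alveolar type 2 (-0.78), 3 of 7 ciliated cell (-0.98) and 2 of 5 club cell markers (-0.33), with 1 ciliated cell marker higher. Alveolar type 1 markers went both ways, 2 of 7 higher and 1 lower, and 1 of 12 lymphocyte markers was higher. Their part in the result was not tested. The Klf9 value held without each library in turn. The count fell to 1 without acute_VCV_040 or healthy_noisy_061. Zbtb16 passed in 4 of the 14 fits that each left out 1 library (adjusted p up to 0.16 by limma, without acute_VCV_040). It also did not pass with no filter on low values (adjusted p = 0.052 by limma) or without the trend and robust prior (adjusted p = 0.058 by limma). Nr3c1 did not pass without acute_VCV_040 (adjusted p = 0.069 by limma) or healthy_noisy_061 (adjusted p = 0.079 by limma).

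Acute injury was compared within each ventilation mode. Under constant tidal volumes, 0 of the 9 genes were higher and 5 lower in acute_VCV than in healthy_VCV lungs, where 26.1% of all genes were higher and 26.4% lower (52.5% in all). Calls in either direction among the 9 were near the share of all genes, so their number is no result about the 9 genes. Klf9 differed by -1.60 ± 0.27 (adjusted p = 3.6e-05) and Zbtb16 by -2.28 ± 0.59 (adjusted p = 0.0026) on the log2 scale by limma, and neither gene overlapped between the groups. In all, 0 of the 9 genes were wholly higher and 6 wholly lower, against 29.6% and 30% of all genes. The receptor gene Nr3c1 had 1998, 2219.9 and 2312 in acute_VCV libraries, against 3305, 3358, 3400.2 and 3556 in healthy_VCV libraries, all of the first below all of the second (-0.65 ± 0.16, adjusted p = 0.0014 by limma). Hsd11b1 had 2627, 2759 and 3363 in acute_VCV libraries, against 4124, 4629, 4717 and 4926 in healthy_VCV libraries, again without overlap (-0.66 ± 0.17, adjusted p = 0.0022 by limma). Tsc22d3 was lower too (-1.16 ± 0.41, adjusted p = 0.021 by limma), a call that did not pass without acute_VCV_040 (adjusted p = 0.1), acute_VCV_049 (adjusted p = 0.08) or healthy_VCV_057 (adjusted p = 0.063). All acute_VCV libraries are of series 12 and the healthy_VCV libraries of series 14 and 15, so acute injury and series cannot be told apart here. Markers of other cell types moved in the same comparison: 4 of 8 macrophage (median -0.76), 5 of 10 fibroblast (-0.62) and 4 of 7 endothelial markers (-0.63) were lower, with 1 endothelial marker higher, and 4 of 12 neutrophil markers were higher (1.00). Lower too were 3 of 7 alveolar type 1 markers, with 1 higher, 2 of 5 club cell and 2 of 7 ciliated cell markers. Alveolar type 2 and lymphocyte markers went both ways, with 1 of 6 and 1 of 12 higher and as many lower. The part of all these markers in the lower values of these genes was not tested. Fkbp5, Per1 and Hsd11b2 did not pass, at -0.26, -0.55 and 0.15. Under variable tidal volumes, acute_noisy against healthy_noisy, 0 genes were called by limma, edgeR or DESeq2 and 1 (Tsc22d3, -1.03 ± 0.41, adjusted p = 0.064) had an unadjusted p under 0.05, where 12.9% of all genes were higher and 13.9% lower (26.7% in all); without acute_noisy_053 there was 1 call.

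In the order of group means, Klf9, Zbtb16 and Hsd11b1 were highest in healthy_VCV, Fkbp5, Tsc22d3 and Per1 in healthy_noisy, Nr3c1 in chronic_noisy, Sgk1 in acute_VCV and Hsd11b2 in control_blank lungs. Most neighbours in these orders overlapped. The exceptions were acute_noisy above control_chronic for Klf9 (1733 ± 126 and 1050 ± 244, SD, n = 4 and 5), healthy_noisy above healthy_VCV for Fkbp5 (6399 ± 976 and 4798 ± 740.1, SD, n = 3 and 4), and chronic_noisy below control_chronic for Hsd11b2 (16.7 ± 2.61 and 84.7 ± 36, SD, n = 3 and 5).

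Some of the 9 genes varied together between libraries of the same group. Pearson correlations of the deviations from group means over the 28 libraries were 0.84 for Zbtb16 with Fkbp5, 0.77 for Nr3c1 with Hsd11b1, 0.75 for Tsc22d3 with Per1, 0.72 for Fkbp5 with Tsc22d3 and 0.60 for Fkbp5 with Per1, out of 36 pairs that ran down to -0.41 for Fkbp5 with Nr3c1. Libraries share their depth, cell makeup and sampling across all genes, so these values are descriptions. Over all 28 libraries, group differences included, the genes most like Klf9 were Edem1 (0.96), Mertk (0.96) and Adipor2 (0.94). Those most like Zbtb16 were Slc10a6 (0.91), Foxo3 (0.90) and Fam126a (0.90). Those most like Fkbp5 were Map3k6 (0.92), Tmem38b (0.90) and Slc10a6 (0.89). Tsc22d3 was most like Klf15 (0.92), Slc25a33 (0.92) and Cnr1 (0.88), and Per1 most like Cdo1 (0.86), Slc38a2 (0.86) and Hif3a (0.84). For the receptor and the enzymes these were Zhx1, Ptprm and Srbd1 for Nr3c1 (0.91, 0.91 and 0.89), Sepp1, Reck and Tlk1 for Hsd11b1 (0.89, 0.88 and 0.86), and Prpsap2, Tekt3 and Btbd16 for Hsd11b2 (0.91, 0.90 and 0.89), of which Tekt3 encodes a protein of sperm and ciliary microtubules. Sgk1 had no gene above 0.63 (Hspc159, with Prkch and Kif2a at 0.61 each).

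Other genes that glucocorticoids are known to induce moved mainly upward where they passed the test against unventilated lungs. Their list, too, was chosen with earlier results of these data known. Of 22 measured from a list of 30, 16 were higher and 0 lower in acute_noisy, 13 and 0 in acute_VCV, 11 and 0 in healthy_noisy, 13 and 2 in healthy_VCV, 11 and 1 in chronic_noisy, and 10 and 0 in chronic_VCV lungs against unventilated ones. Of all genes, 31.3%, 20.6%, 17.5%, 29.3%, 19.1% and 6.89% were higher and 28.4%, 16.7%, 14.6%, 28.1%, 18.1% and 7.9% lower in the same order. Median log2 differences of the list were 1.31, 0.96, 1.00, 0.96, 0.70 and 0.90 in that order, against medians of all genes between -0.03 and 0.07. Mt2A, a metallothionein that binds zinc, was higher by 7.17 ± 0.76 (adjusted p = 1.1e-06) in acute_VCV and by 2.68 ± 0.71 (adjusted p = 0.0028) in healthy_VCV lungs by limma. Irs2, an adaptor of the insulin receptor, was higher by 2.90 ± 0.32 (adjusted p = 7.2e-07) in healthy_VCV and by 1.05 ± 0.31 (adjusted p = 0.025) in chronic_VCV lungs by limma. Il1r2, the decoy receptor for interleukin 1, was higher by 4.50 ± 0.52 to 6.19 ± 0.54. It is abundant in neutrophils, stands in both lists, and its part in the neutrophil marker rise was not tested. Dusp1, a phosphatase that switches off MAP kinases, and Errfi1, an inhibitor of the EGF receptor, passed in 0 of 6 comparisons by limma, at log2 differences of 0.38 to 0.95 and 0.48 to 1.25. These 2 and the ones named next were picked out after their values had been seen. Gadd45g, a stress sensor, was higher in acute_VCV (1.51 ± 0.31, adjusted p = 0.00067 by limma) and lower in healthy_VCV (-1.07 ± 0.29, adjusted p = 0.0035) and chronic_noisy lungs (-1.24 ± 0.28, adjusted p = 0.0022). Anxa1, an anti-inflammatory phospholipid-binding protein, was lower in healthy_VCV (-0.43 ± 0.16, adjusted p = 0.022) and higher in acute_noisy (0.48 ± 0.16, adjusted p = 0.011) and acute_VCV lungs (0.59 ± 0.17, adjusted p = 0.0079).

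**Figure D4:**
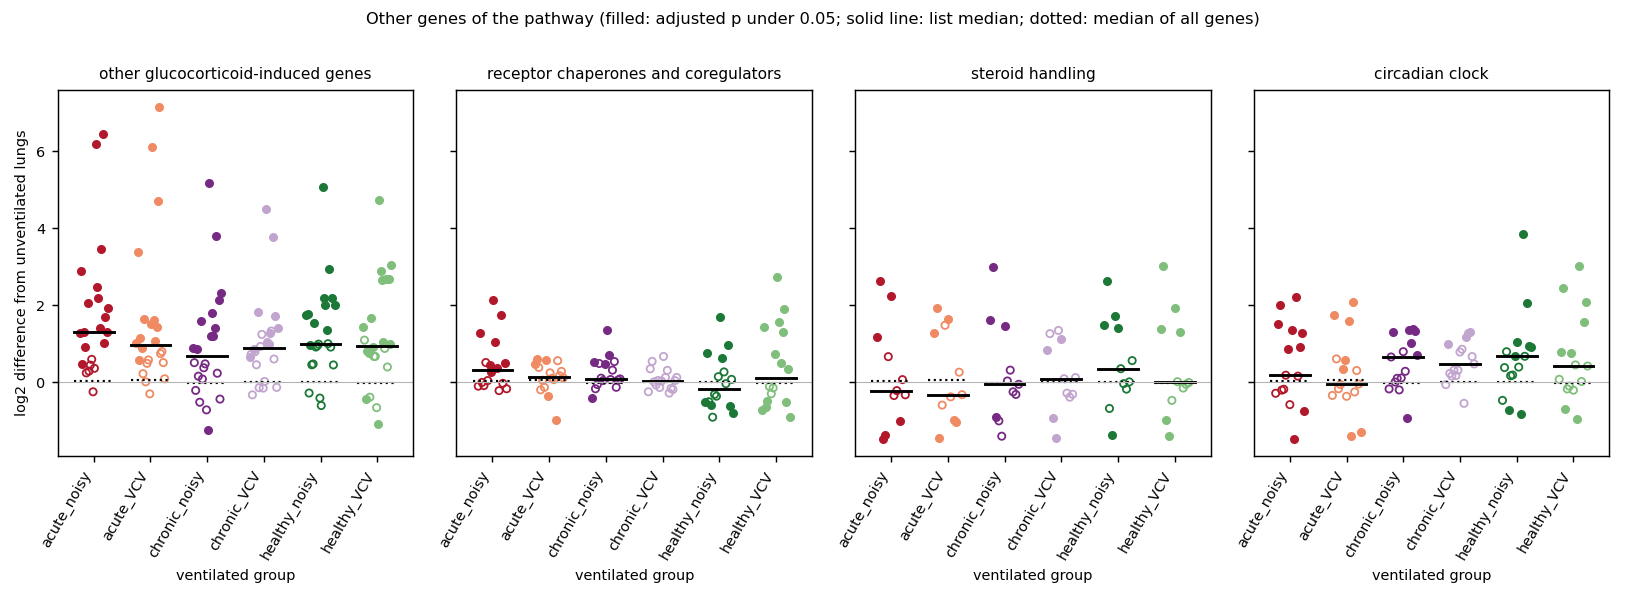
Log2 differences from unventilated lungs (vertical axis) of the measured genes of 4 lists, by ventilated group; each point is a gene, filled where the adjusted p was under 0.05, with the list median as a solid line and the median of all genes as a dotted line. The medians of the other glucocorticoid-induced genes lie between 0.70 and 1.31, and those of the other 3 lists between -0.32 and 0.68.

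Genes that escort the receptor or read out its binding moved in both directions. Of 16 measured from a list of 19 chaperones and coregulators, 8 were higher and 0 lower in acute_noisy, 3 and 2 in acute_VCV, 4 and 4 in healthy_noisy, 8 and 5 in healthy_VCV, 4 and 1 in chronic_noisy, and 0 and 0 in chronic_VCV lungs by limma. The same comparisons had 31.3%, 20.6%, 17.5%, 29.3%, 19.1% and 6.89% of all genes higher and 28.4%, 16.7%, 14.6%, 28.1%, 18.1% and 7.9% lower. Calls in either direction lay near or below the share of all genes in acute_noisy, acute_VCV, chronic_noisy and chronic_VCV lungs, and those counts are no result about the list. Medians of the list ran from -0.17 in healthy_noisy to 0.32 in acute_noisy lungs. The coactivator gene Ncoa2 was higher by 2.75 ± 0.35 (adjusted p = 2.2e-06) in healthy_VCV and by 2.13 ± 0.35 (adjusted p = 2.6e-05) in acute_noisy lungs by limma, and stood at 0.25 ± 0.37 (adjusted p = 0.63) in acute_VCV lungs. Ncoa3 and the acetyltransferase gene Crebbp were higher by 1.58 ± 0.22 and 1.43 ± 0.18 in healthy_VCV lungs. The counts in a further list, of steroid handling, were also mixed. Of 11 genes tested out of 16, 3 were higher and 3 lower in acute_noisy, 3 and 3 in acute_VCV, 4 and 1 in healthy_noisy, 4 and 2 in healthy_VCV, 3 and 1 in chronic_noisy, and 2 and 2 in chronic_VCV lungs, with medians of -0.32 to 0.36. Beside these small counts stand the same shares of all genes, 31.3%, 20.6%, 17.5%, 29.3%, 19.1% and 6.89% higher and 28.4%, 16.7%, 14.6%, 28.1%, 18.1% and 7.9% lower. Those higher were led by H6pd and by the rat genes for the efflux pump P-glycoprotein, which exports steroids. Abcb1a was higher in all 6 groups, by 0.85 ± 0.19 in chronic_VCV to 1.62 ± 0.19 in chronic_noisy lungs, and Abcb1b in 5, by up to 3.03 ± 0.55 in healthy_VCV lungs.

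Among 15 measured clock genes from a list of 20 that leaves out Per1, 7 were higher and 2 lower in acute_noisy, 5 and 2 in acute_VCV, 6 and 2 in healthy_noisy, 6 and 2 in healthy_VCV, 6 and 1 in chronic_noisy, and 4 and 0 in chronic_VCV lungs, with medians of -0.04 to 0.68. All genes had 31.3%, 20.6%, 17.5%, 29.3%, 19.1% and 6.89% higher and 28.4%, 16.7%, 14.6%, 28.1%, 18.1% and 7.9% lower in these comparisons. Nr1d1, a nuclear receptor that represses clock genes, was higher in all 6 groups, most in healthy_noisy lungs (3.86 ± 0.43, adjusted p = 9.6e-06 by limma). Per3, a relative of Per1, was higher in 5, most in healthy_noisy lungs (2.07 ± 0.32, adjusted p = 0.00012 by limma). Npas2, a partner of the clock activator Arntl, was lower in 5, most in acute_noisy lungs (-1.48 ± 0.27, adjusted p = 7.7e-05 by limma). Arntl itself, also picked out after its values had been seen, passed in 0 of 6 by limma, at -0.47 to 0.08. Because no time of day is given for the groups, ventilation and sampling time cannot be told apart for these genes or for Per1.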

How the data were processed

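The authors deposited 1 table of gene values for the 28 libraries, on Ensembl version 67 genes per the file header. The deposited values are a signal unit, read counts divided by a size factor for each library. The submitters' processing notes name CASAVA 1.8.0, BWA, bedtools 2.11, DESeq 1.8.3 and the rat build rn4, with no role or order given. Per the labels' protocols, libraries were strand-specific (dUTP) and made from poly(A) RNA.

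Every value of a library was a whole multiple of what 1 read is worth (100.0% of values within 0.1 read), so whole reads were recovered for depth and for count tests. A minimum mean of 10 left 14908 of 17002 genes. Values on the scale log2(deposited value + 1) were tested with limma 3.58.1 (R 4.3.3; trend and robust prior) in 1 fit over all 8 groups, with Benjamini-Hochberg adjustment and a threshold of 0.05. A log2 difference on this scale understates the change of low genes. There were 15 comparisons, 12 between groups and 3 between differences; 1 of the 3, the difference between mode effects, was chosen after seeing the data.

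Alternatives were a pseudocount of 10, no filter, quantile normalization, edgeR 4.0.16, DESeq2 1.42.0, limma without trend and robust prior, only the groups compared, a number series covariate or series 15 alone, leaving out the 2 control_chronic libraries of lowest depth, and leaving out each library in turn. The limma step was tested on simulated data. Replicates differed beyond sampling noise, with at least 15.3 as the chi-square per gene. The labels do not say whether replicates are separate animals, so p-values measure only the spread between these samples, which may be technical.

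The 9 genes and the gene lists (other glucocorticoid-induced genes, chaperones and coregulators, steroid handling, clock, and cell type markers) were chosen with earlier results of these data known. All 9 genes are named; of each list, the 3 genes called in most of the 6 comparisons with unventilated lungs, and others only where said. The genes most like each were the 3 with the highest Pearson correlation of log2 values. Promoter windows came from RefSeq, build GRCr8.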

Additional observations from a re-analysis of the deposited data

Results flagged for a closer look

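Among unventilated, chronically injured lungs, control_chronic_115 had 25.47 for Hsd11b2 (20 reads), far below the 85.2 to 118 of the other 4 libraries. It was the 1 such library among 27 groups of values tested for a sample far from the rest. Chance would mark about 5% of groups, so 1 flag is near what chance would give. Groups of 3 libraries were too small for this check, so chronic_VCV_069 was not covered by it. Without control_chronic_115, Hsd11b2 differed from control_chronic by -2.50 in chronic_noisy (adjusted p = 0.00053 by limma) and by -2.60 in chronic_VCV lungs (adjusted p = 0.001).

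The effect of constant-volume ventilation differed between chronically injured and uninjured lungs by -1.41 on the log2 scale for Klf9 and by -2.53 for Zbtb16. The groups differ in library number series, except that healthy_VCV_062 shares series 15 with chronic_VCV, so series and injury cannot be told apart there.

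The effect of variable against constant tidal volumes differed between acutely injured and uninjured lungs by 1.47 for Klf9, 2.11 for Zbtb16 and 0.64 for Nr3c1, in a comparison added after seeing the data. Libraries of acute_noisy stood at 1729.7 and 1779.8 for Klf9 in series 14, and at 1563 and 1861 in series 15. No series holds both acute groups, so mode and series cannot be told apart there.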

How the results depend on the processing

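No value changed direction among called results under any setting tried. Of single-gene values, leaving out 1 library kept the side of the threshold in 1088, brought 24 past it and took 31 out; the other settings did so in 1003, 20 and 12. No paired analysis was possible because replicate numbers differ between all groups.

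Counts moved as follows, and the causes were not tested. By DESeq2, genes called were 2684 for healthy_noisy against healthy_VCV, 1153 for chronic_noisy against chronic_VCV and 721 for the chronic difference under the variable mode, against 1538, 362 and 396 by limma. Of the 9 genes, DESeq2 called 3, edgeR 2 and quantile normalization 2 between the acute modes, against 1. Quantile normalization called 1 of the 9 for acute_noisy against healthy_noisy. Fitted on the groups compared alone, with fewer samples behind the spread, genes called were 5921 for acute_noisy, 3573 for acute_VCV, 2059 for healthy_noisy and 866 for control_chronic, each against control_blank, then 0 between the acute, 3886 between the healthy and 33 between the chronic modes and 8 for acute_noisy against healthy_noisy, where the shared fit gave 8911, 5563, 4791, 2214, 3609, 1538, 362 and 3987. Of the 9 genes, 1 was called for acute_VCV against control_blank, 0 between the acute and 4 between the healthy modes, and 1 for the chronic difference under constant volumes. A covariate for number series gave 732 genes for acute_noisy against healthy_noisy, 9 between the chronic and 0 between the healthy modes, and series 15 alone gave 153 and 0 for the first and last of these; chronic_noisy and chronic_VCV share no series. Without the 2 control_chronic libraries of lowest depth, genes called were 1389 for chronic_VCV against control_chronic, 701 for control_chronic against control_blank and 223 for the chronic difference under the variable mode, and 1 of the 9 was called for that under constant volumes.

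Leaving out each library in turn, genes called ranged from 7283 to 9379 for acute_noisy, 3730 to 5923 for acute_VCV, 2666 to 5419 for healthy_noisy, 6642 to 8658 for healthy_VCV and 204 to 3635 for control_chronic against control_blank, and from 2931 to 5389 for chronic_noisy and 1181 to 2065 for chronic_VCV against control_chronic. They ranged from 780 to 4917 between the acute, 1 to 1982 between the healthy and 8 to 702 between the chronic modes, 1555 to 6146 for acute_noisy against healthy_noisy, 6851 to 7376 for acute_VCV against healthy_VCV, 193 to 383 and 943 to 4933 for the chronic differences under variable and constant volumes, and 4320 to 6757 for the difference between modes. Of the 9 genes the ranges were 4 to 6, 1 to 4, 4 to 5, 5 to 7 and 0 to 2 against control_blank in the same order, 5 to 6 and 2 to 4 against control_chronic, 0 to 2 between the acute, 0 between the healthy and 0 between the chronic modes, 0 to 1 and 4 to 5 for acute injury under variable and constant volumes, 0 and 1 to 4 for the chronic differences and 1 to 4 for the difference between modes.

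Quantile normalization moved the median of all genes in healthy_VCV against control_blank to -0.13, against -0.03. By edgeR the share of calls that were higher was 42.1% for healthy_noisy and 38.4% for control_chronic against control_blank, 63.6% for acute_noisy against healthy_noisy, and 53.3% and 53.5% for the chronic differences under constant and variable volumes, where limma gave 54.5%, 62.6%, 48.2%, 41.5% and 36.4%. Hsd11b2 rests on few reads, 2 to 39 in each ventilated library. With a pseudocount of 10 its differences were -3.31 in acute_noisy, -2.66 in acute_VCV, -2.95 in healthy_noisy, -2.79 in healthy_VCV, -1.70 in chronic_noisy and -1.76 in chronic_VCV lungs.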

Other observations

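Markers of other cell types are given as measured in ventilated against unventilated lungs, in the order acute_noisy, acute_VCV, healthy_noisy, healthy_VCV, chronic_noisy and chronic_VCV. Of 8 macrophage markers, 6, 4, 6, 6, 6 and 4 were higher by limma; they include Mertk, an engulfment receptor whose pattern was among those most like Klf9. Of 12 lymphocyte markers, 7, 0, 9, 6, 3 and 5 were lower and 1, 0, 0, 1, 0 and 0 higher. Of 10 fibroblast markers, 4, 2, 2, 5, 8 and 2 were higher and 0, 0, 0, 0, 1 and 0 lower. Endothelial markers went both ways, with 3, 2, 1, 4, 1 and 0 of 7 higher and 2, 1, 1, 1, 1 and 0 lower. Alveolar type 1 markers were lower in 5, 4, 2, 3, 3 and 3 of 7 and higher in 0, 0, 0, 1, 0 and 0. Alveolar type 2 markers were lower in 2, 0, 1, 2, 0 and 0 of 6 and higher in 0, 1, 1, 1, 1 and 1. Over all genes, 31.3%, 20.6%, 17.5%, 29.3%, 19.1% and 6.89% were higher and 28.4%, 16.7%, 14.6%, 28.1%, 18.1% and 7.9% lower in the same order. Cardiac muscle markers were lower in 6, 1, 6, 3, 0 and 1 of 6 and higher in 3 of 6 in chronic_noisy lungs; their summed level was 231 to 14886 in ventilated libraries, against 880 to 1221 in control_chronic and 9427 to 16874 in control_blank libraries. Of 4 erythroid markers, 1 was lower, in chronic_VCV lungs. The part of these markers in the results for the 9 genes was not tested.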
